A study of Mus musculus with 6 samples.

Results

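Klf2, Klf3, S1pr1, Ccr7, Il7r, Tcf7, Lef1, Satb1 and Btg1 are genes of the resting, recirculating T cell state, and they were taken from the deposited tables by symbol. All 9 were listed once, and all 9 had enough counts to be tested among 12768 tested of 21899 listed genes. The mRNA was measured by bulk RNA sequencing of induced regulatory T cells (iTregs), which are CD4+ T cells turned into FoxP3-expressing cells in culture. The WT group (3 samples) came from iWT mice and the KO group (3 samples) from Dlst-Treg iKO mice, a name that refers to an induced knockout in Treg cells of Dlst, a subunit gene of the 2-oxoglutarate dehydrogenase complex of the TCA cycle. Spleen CD4+ T cells of both groups spent 2 days in Treg polarising culture with 4-hydroxytamoxifen, which activates tamoxifen-inducible Cre, and both groups were sorted for CD4, FoxP3-GFP and tdTomato. The sources used here do not give the Cre driver, the age or the number of mice. Since no label states separate animals or cultures, a p-value here reflects only how far the 3 samples of a group spread, and some of that spread may be technical.

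KLF2 is a zinc-finger transcription factor of quiescent T cells. It is driven by FOXO1, is lost when the T cell receptor and PI3 kinase signal, and activates S1pr1, whose product lets T cells leave lymph nodes. CCR7 guides naive cells into lymph nodes, the IL-7 receptor keeps them alive, TCF1 (from Tcf7), LEF1 and SATB1 hold their transcription programme, and BTG1 limits mRNA abundance and cell cycle entry. Activated and regulatory T cells usually carry less of these mRNAs than naive cells, and FOXP3 is known to repress Satb1.

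Libraries held 33590510 to 49772670 estimated counts. KO replicate 1 stood apart from the other 5: its Y-linked mRNA Ddx3y was at 80.8 CPM (counts scaled to the library total, with TMM factors between libraries) against at most 0.0257 CPM elsewhere, and its neutrophil and monocyte markers were the highest. Eif2s3y, also Y-linked, was at 82.4 CPM there and at 0 elsewhere. KO replicate 1 thus held male cells, which the other 5 did not show, so sex was not balanced between the groups. The part of sex in the differences was not tested. KO replicates 2 and 3 were the most alike, with a biological coefficient of variation of 3%, while same-group pairs otherwise had 7.1 to 14.8%. WT replicate 1 also differed from its group, at 14.4 and 14.8%, as KO replicate 1 did at 14.3 and 12.5%. Dlst was at 161, 149 and 149 CPM in WT replicates 1 to 3 and at 125, 129 and 129 CPM in KO. All KO samples thus lay below all WT samples, with most of the counts remaining (log2 fold change -0.26, SE 0.05, edgeR adjusted p = 0.0894). DESeq2, a second test, called Dlst (adjusted p = 0.00182), as it did 3.81% of genes in either direction. Counts per gene do not show whether the remaining mRNA is intact. All KO samples below all WT samples held for 10.9% of tested genes. The 12 T cell markers, led by Lck and Lat, summed to 4525 to 4711 CPM in WT and to 4326 to 4569 CPM in KO. Foxp3 averaged 185 ± 26.5 CPM (WT) and 222 ± 13.2 CPM (KO; SD over 3 samples each), a log2 difference of 0.26 that was 0.15 without WT replicate 1. The 10 Treg markers, led by Il2ra and Capg, summed to 3525 to 4249 CPM in WT and to 3568 to 4002 CPM in KO, and 1 of them, Ikzf2, fell by 0.57 on the log2 scale (edgeR adjusted p = 0.0366), a call lost without any one library other than WT replicate 1 (adjusted p from 0.0748 to 0.155).

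Promoter sequences of RefSeq (GRCm38.p6, plus strand here, 5′ to 3′) are shown for Klf2, the gene with the largest difference, for Klf3, its relative, and for Btg1, the most abundant of the 9. Capitals mark exact matches, searched on both strands, to CCACCC or its complement GGGTGG (the core that KLF proteins read), GTAAACA or its complement TGTTTAC (FOXO) and the MEF2 motif (CTA and TAG with 4 bases between). The Klf2 and Btg1 stretches are the 250 bases before the RefSeq start, chr8:72318812-72319061 and chr10:96616751-96617000, and the Klf3 stretch is the 30 bases from -128 to -99, chr5:64803393-64803422.
Klf2: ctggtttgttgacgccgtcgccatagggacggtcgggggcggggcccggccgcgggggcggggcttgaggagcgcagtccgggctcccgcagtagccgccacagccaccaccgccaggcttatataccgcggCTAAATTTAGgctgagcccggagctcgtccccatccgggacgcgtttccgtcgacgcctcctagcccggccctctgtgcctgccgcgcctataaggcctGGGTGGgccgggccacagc
Klf3: gctgcctCCACCCaagtGGGTGGggacccc
Btg1: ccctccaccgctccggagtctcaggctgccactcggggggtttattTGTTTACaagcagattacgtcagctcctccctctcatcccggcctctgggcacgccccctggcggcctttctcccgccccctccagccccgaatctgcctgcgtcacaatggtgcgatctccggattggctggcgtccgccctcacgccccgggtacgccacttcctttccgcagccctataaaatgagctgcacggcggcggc

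The Klf2 stretch holds the MEF2 letters starting 118 bases before the RefSeq start and a KLF core 19 bases before it. Klf3 has a pair of KLF cores facing each other, starting at -121 and -111, and another at -49, and Btg1 has the FOXO letters at -204. The GENCODE M21 starts of Klf2 (72319033) and Klf3 (64803388) lie before these RefSeq starts. By the GENCODE starts, the Klf2 KLF core, from 72319043, and the whole Klf3 stretch lie inside the genes. In windows of 300 bases, the MEF2 letters were found in 3.69%, the FOXO letters in 3.65% and the KLF core in 31.5% of the 32851 windows in the table. S1pr1 and Ccr7 have no entry, and the other 7 genes have 15 windows in all, of which 9 hold the KLF core, 2 the FOXO letters (Btg1 and Tcf7) and 1 the MEF2 letters. The letters CTTTGAA of TCF and LEF factors were in 0 of the 15 windows and CTTTGTT in 2 overlapping windows of Satb1 that share 1 site, against 5.14% and 5.85% of all windows. Since windows of Lef1 and of Satb1 overlap, the 13 KLF matches are 11 distinct sites. A match in these letters is a description of the sequence only.

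All 9 mRNAs had a higher mean in KO than in WT. Their median log2 fold change was 0.25, a middle value shared by Lef1, against -0.0029 over all tested genes, where 49.1% of genes were above 0. For 7 of the 9, every KO sample lay above every WT sample, which held for 11.9% of tested genes (22.8% had no overlap in either direction). None of the 9 passed edgeR's quasi-likelihood test at an adjusted p of 0.05, a threshold that 0.674% of tested genes passed, 58 of them higher in KO (0.454%) and 28 lower (0.219%). At an unadjusted p under 0.05 there were 7 of the 9, all higher in KO, against 8.47% of tested genes (6.6% were lower and 15.1% in either direction). The 9 genes were chosen with earlier results of these data known. Such shares are therefore a description and no test of the 9 as a group. DESeq2 called 3, Klf3 (adjusted p = 0.000485), S1pr1 (0.00302) and Klf2 (0.0215), all higher in KO, against 2.65% of the genes it tested (3.81% in either direction). On log2(TPM + 1), limma called 0 of the 9, against 0.355% of genes higher in KO and 0.546% in either direction. An edgeR fit with the replicate number as a block called 1, S1pr1, against 1.05% of genes higher in KO and 1.39% in either direction.

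**Figure D1:**
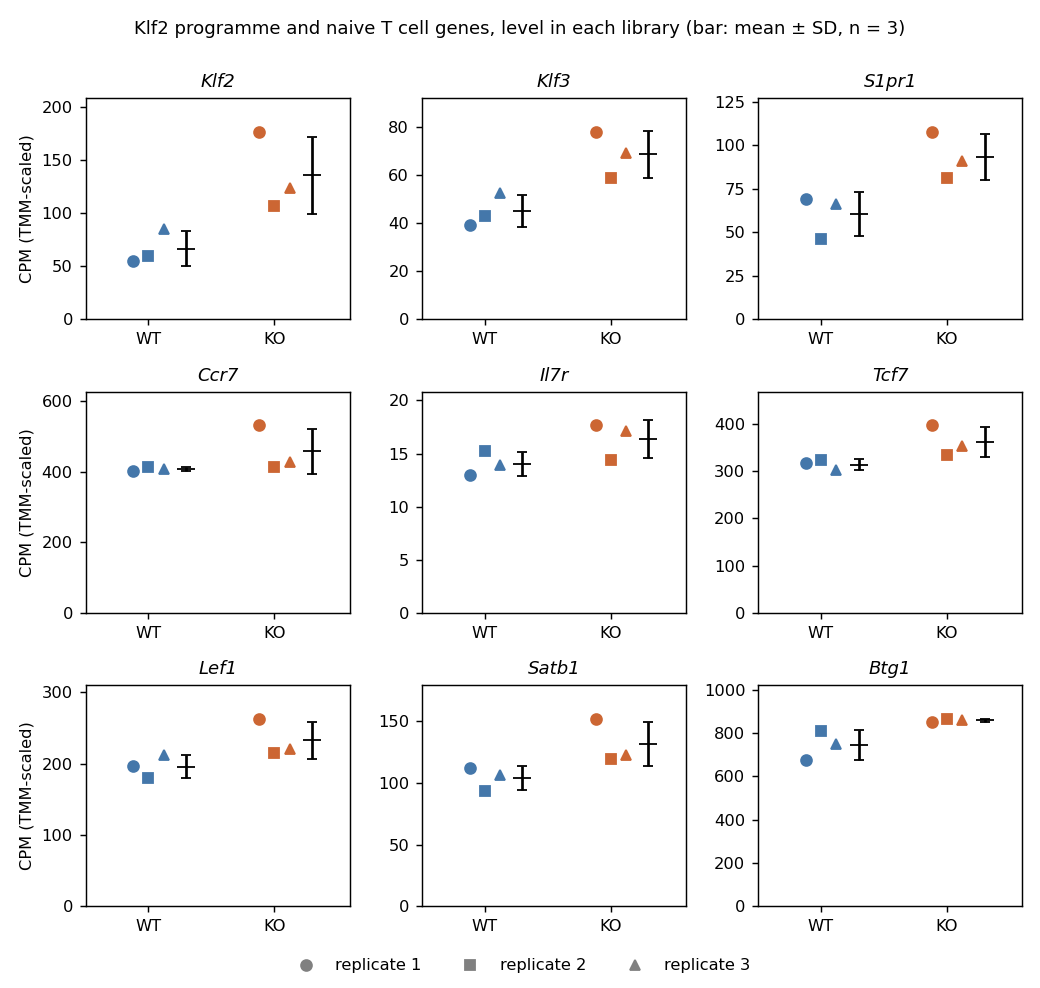
Level of each of the 9 genes in each library in CPM (y axis, from 0), WT in blue and KO in orange; symbols give the replicate number and bars the mean ± SD of 3 samples. Klf2, Klf3, S1pr1, Tcf7, Lef1, Satb1 and Btg1 have no overlap between groups, Ccr7 and Il7r do, and KO replicate 1 is the highest library for 8 of the 9 genes.

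The largest difference among the 9 was in Klf2 (ENSMUSG00000055148, chromosome 8, 72319033 to 72321656, plus strand in GENCODE M21, GRCm38). It was at 55.3, 59.6 and 85.2 CPM in WT replicates 1 to 3 and at 177, 107 and 124 CPM in KO replicates 1 to 3. The groups do not overlap, but the spread within each is wide, with a coefficient of variation of 24.2% in WT and 26.9% in KO. The means were 66.7 ± 16.2 and 136 ± 36.5 CPM (SD, n = 3 each), a 2.03-fold difference with a 95% interval of 1.37 to 3.03. The log2 fold change of 1.02 (SE 0.24) had an edgeR adjusted p = 0.146. Without KO replicate 1, the highest library, it was 0.79 (adjusted p = 0.168).

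Klf3 encodes a related KLF protein that binds the same CACCC boxes and mostly represses. Its levels were 39.4, 43.1 and 52.4 CPM in WT and 77.9, 58.8 and 69.1 CPM in KO. WT replicate 3 was the highest WT library and KO replicate 1 the highest KO library, as for Klf2, and the lowest KO value was still above the highest WT value. The log2 fold change was 0.61 (SE 0.13, edgeR adjusted p = 0.111), or 1.53-fold, which was the smallest p of the 9 and ranked 268 among all tested genes. Klf3 (ENSMUSG00000029178) lies on chromosome 5 from 64803388 to 64832901, plus strand.

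The sphingosine 1-phosphate receptor gene S1pr1, a direct KLF2 target whose product draws T cells out of lymphoid tissue, was at 68.9, 45.9 and 66.25 CPM in WT and 108, 80.9 and 91.2 CPM in KO. WT replicate 2 was low and KO replicate 1 high, and the groups do not overlap. The log2 fold change was 0.63 (SE 0.17, edgeR adjusted p = 0.176). With the replicate number as a block it passed, at 0.64 (adjusted p = 0.0325), but the numbers could not be shown to pair the samples. Without WT replicate 2 the value was 0.47. S1pr1 (ENSMUSG00000045092) lies on chromosome 3 from 115710433 to 115715072, minus strand.

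The chemokine receptor gene Ccr7 was abundant and nearly level in WT, at 400.5, 413 and 407 CPM, and was at 531, 412 and 429 CPM in KO. KO replicate 2 lay within the WT range, so the groups overlap, and the higher KO mean of 457 ± 64.5 CPM against 407 ± 6.37 CPM (SD, n = 3 each) was carried by a single high library, KO replicate 1. The log2 fold change of 0.17 (SE 0.09, edgeR adjusted p = 0.44) was 0.05 without that library. Its 95% interval ran from -0.05 to 0.38. Ccr7 (ENSMUSG00000037944) lies on chromosome 11 from 99144196 to 99155077.

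The IL-7 receptor alpha chain gene, Il7r, was the least abundant of the 9. It was at 13.0, 15.2 and 13.95 CPM in WT and 17.7, 14.4 and 17.1 CPM in KO. KO replicate 2 lay below WT replicate 2, so the groups overlap, and the log2 fold change was 0.22 (SE 0.10, edgeR adjusted p = 0.363). Its estimated counts were not whole numbers in every library, as was also so for Satb1, while the other 7 genes had whole counts throughout. Il7r (ENSMUSG00000003882) lies on chromosome 15 from 9505788 to 9530176.

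Tcf7 and Lef1 encode a pair of related HMG-box factors that act with beta-catenin. Tcf7 was at 317, 324 and 302 CPM in WT and 397, 335 and 353 CPM in KO, with a KO-minus-WT log2 difference of 0.20 (SE 0.07, edgeR adjusted p = 0.248). Without KO replicate 1 it was 0.13. Lef1 was at 197, 179 and 211 CPM in WT and 263, 215 and 221 CPM in KO, with a KO-minus-WT log2 difference of 0.25 (SE 0.09, adjusted p = 0.267), or 0.16 without KO replicate 1. In both genes the lowest KO library lay just above the highest WT library, and both differences were 1.15- to 1.19-fold. Tcf7 (ENSMUSG00000000782) lies on chromosome 11 from 52252371 to 52283014 and Lef1 (ENSMUSG00000027985) on chromosome 3 from 131110471 to 131224356.

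Satb1, the chromatin organiser gene, was at 112, 93.1 and 107 CPM in WT and 152, 119 and 122.5 CPM in KO. The log2 fold change was 0.34 (SE 0.11, edgeR adjusted p = 0.215), or 0.22 without KO replicate 1. The groups do not overlap in CPM. In the deposited TPM, which also scale by gene length, KO replicates 2 (57.83 TPM) and 3 (58.95 TPM) lay below WT replicate 1 (59.06 TPM). Btg1 was at 674, 809.8 and 749 CPM in WT and 849, 865 and 859 CPM in KO, and was the one gene of the 9 without its highest value in KO replicate 1. Its KO samples varied by 0.953% and its WT samples by 9.17% (coefficient of variation), and the log2 fold change was 0.20 (SE 0.07, edgeR adjusted p = 0.236). Satb1 (ENSMUSG00000023927) lies on chromosome 17 from 51736187 to 51833290 and Btg1 (ENSMUSG00000036478) on chromosome 10 from 96617006 to 96622809.

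**Figure D2:**
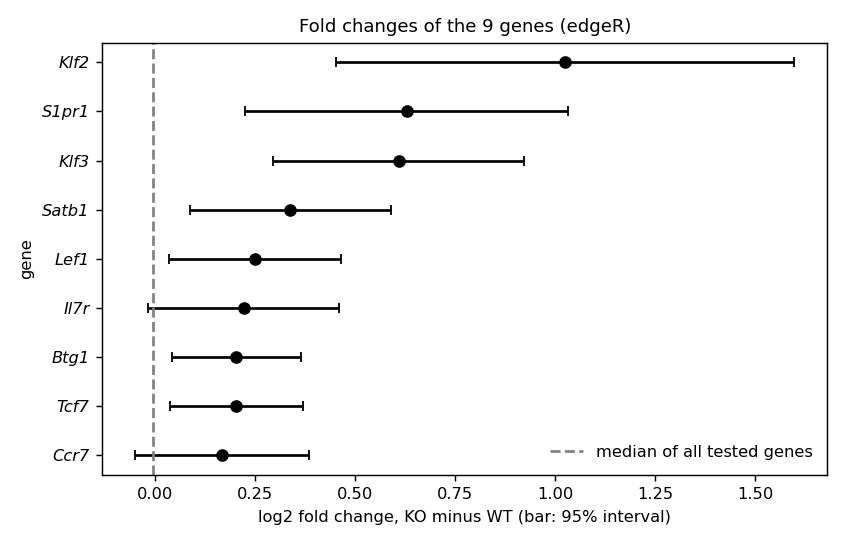
Log2 fold change of KO minus WT for each gene (x axis) with its 95% interval from edgeR (bars) and the median of all tested genes (dashed line). Klf2, S1pr1 and Klf3 lie at 1.02, 0.63 and 0.61, the other 6 between 0.17 and 0.34, and the intervals of Ccr7 and Il7r include 0.

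Per transcript length, the order of levels in WT was Btg1 (498 ± 15.9 TPM), Ccr7 (358 ± 3.16), Tcf7 (232 ± 6.37), Lef1 (133 ± 12.05), Klf2 (62.9 ± 15.7), Satb1 (52.6 ± 7.22), S1pr1 (34.5 ± 7.603), Klf3 (25.95 ± 4.497) and Il7r (6.90 ± 0.477), all in TPM with SD over 3 samples. Neighbours in this order did not overlap in WT except Klf2 with Satb1 and S1pr1 with Klf3. The order of the means in KO was the same, from 550 ± 15.1 TPM for Btg1 to 8.04 ± 0.878 TPM for Il7r. There Klf2, at 128 ± 34.7 TPM, overlapped with Lef1, at 157 ± 16.9 TPM, and was separate from Satb1, at 64.3 ± 10.3 TPM. Satb1 in turn overlapped with S1pr1, at 53.2 ± 7.81 TPM.

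Relative to the WT mean, their median log2 level was 0.43 in KO replicate 1, 0.20 in KO replicate 2 and 0.24 in KO replicate 3, and all 9 were above the WT mean in each KO library. KO replicate 1 was the highest of the 6 libraries for 8 genes, and KO replicate 2 was the lowest KO library for 8. Without KO replicate 1 the median log2 fold change over the 9 was 0.21, and without both libraries numbered 1 it was 0.16.

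KO replicate 1 was also the library with the most myeloid marker mRNA. The 14 neutrophil markers, none of them at 0 in all libraries, summed to 6.41 to 36.4 CPM in WT and 80.5 to 325 CPM in KO, led by S100a9 and S100a8. Of 12 tested, 1 passed, Mmp8 (log2 fold change 3.12, edgeR adjusted p = 0.0487), against 0.674% of all tested genes. All 12 were above 0, with a median log2 fold change of 3.33. In 11 every KO sample lay above every WT sample, against 11.9% of all tested genes. The 14 monocyte and macrophage markers, led by Lyz2 and Itgam, summed to 21.8 to 33.4 CPM in WT and 101.5 to 379 CPM in KO, again highest in KO replicate 1, and 1 of 10 tested passed, Mrc1 (2.37, edgeR adjusted p = 0.0449). All 10 were above 0 (median log2 fold change 1.80), and in 8 every KO sample lay above every WT sample. The calls of Mmp8 and Mrc1 were both lost without any one library (edgeR adjusted p from 0.0509 to 0.157 for Mmp8 and from 0.0754 to 0.18 for Mrc1). Within WT the neutrophil sum was lowest in replicate 3, the library with the most Klf2, and highest in replicate 1, the library with the least. S1pr1 and Satb1 were highest in WT replicate 1, and in KO both Klf2 and the neutrophil sum were highest in replicate 1. The part of neutrophils in these levels was not tested. B cell markers, led by Ighm and Cd79a, summed to 122 to 304 CPM in WT and 164 to 200.5 CPM in KO. Of 10 tested, 0 were above 0 (median log2 fold change -0.40) and 0 had an unadjusted edgeR p under 0.05. CD8 and NK markers, led by Cd8a and Nkg7, summed to 99.1 to 151 CPM and 140 to 172 CPM.

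Endothelial cells also carry much Klf2 and S1pr1. Their 9 markers summed to 40.7 to 52.7 CPM in WT and 48.2 to 71.6 CPM in KO, of which most was Pecam1, a gene that T cells also express, followed by Egfl7. Of the 9, 6 had too few counts to be tested, and of the 3 tested 2 were above 0 (median log2 fold change 0.32) and 0 passed by edgeR. For replicates 1 to 3 the endothelial sums were 52.7, 40.7 and 52.3 CPM in WT and 71.6, 48.2 and 56.6 CPM in KO. The libraries had this order for S1pr1 and Satb1 in both groups and for Klf2 in KO only. In KO, replicate 1 was the highest and replicate 2 the lowest library for 8 of the 9 genes. The 8 dendritic markers summed to 6.97 to 8.99 CPM in WT and 11.6 to 15.5 CPM in KO, with Itgax and Batf3 leading and Itgax past the threshold (1.596, edgeR adjusted p = 0.0472, lost without any one library other than KO replicate 1), and the 8 erythroid markers, led by Hbb-bs and Klf1, to at most 1.499 CPM. The part of other cell types in the differences of the 9 genes was not tested. In bulk samples more cells of a type and more mRNA per cell cannot be told apart.

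**Figure D3:**
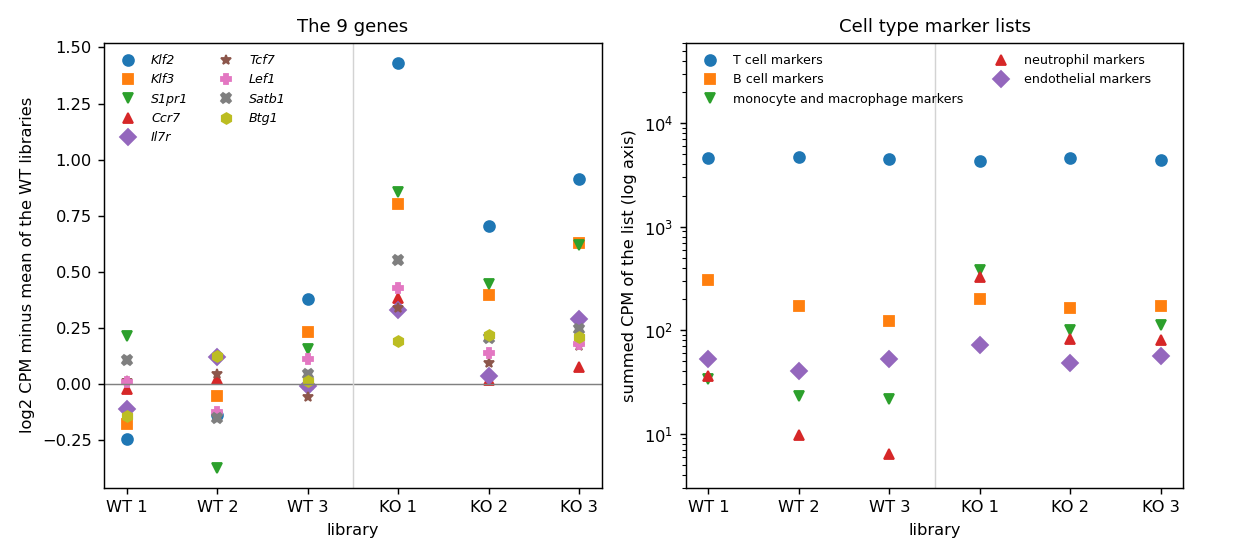
Left, log2 CPM of each of the 9 genes in each library minus its mean over the WT libraries (y axis); right, summed CPM of 5 cell type marker lists in the same libraries (log axis). The 9 genes are all above 0 in each KO library and mostly highest in KO 1, where neutrophil (325 CPM) and monocyte (379 CPM) sums are also highest, while the T cell sum stays between 4326 and 4711 CPM.

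Genes that act upstream of Klf2 were near 0 as a group. Of 22 tested genes of the PI3 kinase, FOXO, ERK5, MEF2 and KLF2-degrading ligase group, 0 passed by edgeR or DESeq2, and 0 had an unadjusted edgeR p under 0.05. Over all tested genes these shares were 0.674%, 3.81% and 15.1% in either direction, and they also apply to the lists below. The median log2 fold change of the 22 was 0.01. Foxo1, which activates Klf2 and Il7r, was at 281 ± 34.8 CPM (WT) against 288 ± 5.51 CPM (KO; SD over 3 samples each), a log2 fold change of 0.04 with a 95% interval of -0.17 to 0.24. Pik3ip1, an inhibitor of PI3 kinase in resting T cells, was at 0.35 (SE 0.15, edgeR adjusted p = 0.332), or 0.21 without WT replicate 1 and 0.10 without both libraries numbered 1.

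Among the other KLF genes, 0 of 10 tested passed by edgeR, with a median of -0.02. An unadjusted edgeR p under 0.05 was found for 3, all higher in KO, against 8.47% of all tested genes. Klf4, a close relative of Klf2 that also restrains T cell division but is abundant in myeloid cells, was at 1.31, 1.75 and 1.92 CPM in WT and 3.61, 3.17 and 3.04 CPM in KO. Its log2 fold change was 0.98 (SE 0.20, edgeR adjusted p = 0.0897). Klf13 averaged 232 CPM (WT) and 276 CPM (KO), which gave 0.25 (SE 0.07, adjusted p = 0.155). DESeq2 called both Klf4 and Klf13, against 3.81% of all genes it tested.

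In the sphingosine 1-phosphate pathway around S1pr1, 0 of 15 tested genes passed by edgeR, and the median was -0.01. An unadjusted edgeR p under 0.05 was reached by 2 genes higher and 1 lower in KO, against 8.47% and 6.6% of all tested genes. Sgpp1, which encodes a phosphatase that breaks down sphingosine 1-phosphate, was at 80.0, 50.2 and 54.9 CPM in WT and 109, 143 and 137 CPM in KO. Its log2 fold change of 1.08 (SE 0.19) had an edgeR adjusted p = 0.0751, and it passed by DESeq2, without WT replicate 1 (1.30, edgeR adjusted p = 0.0204) and without both libraries numbered 1. Its counts were not whole numbers in every library. KO replicate 1 was the lowest KO library for Sgpp1, the reverse of S1pr1. S1pr4, another receptor of the same lipid, was at 0.25 (SE 0.09, adjusted p = 0.256), or 0.15 without KO replicate 1. Cd69, whose protein pulls S1PR1 from the surface, was at 138 ± 26.0 CPM (WT) against 124 ± 20.9 CPM (KO), with a KO-minus-WT log2 difference of -0.16 (SE 0.17).

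Of the adhesion and motility genes that work with CCR7 in lymph node entry, 0 of 13 tested passed by edgeR or DESeq2. Their median was 0.03. There were 4 genes higher and 1 lower at an unadjusted edgeR p under 0.05, against 8.47% and 6.6% of all tested genes. Arhgef1, an exchange factor gene of lymphocyte migration, was at 0.22 (SE 0.08, edgeR adjusted p = 0.242), or 0.13 without KO replicate 1, and Itgb7, an integrin chain for gut homing, at 0.25 (SE 0.10, adjusted p = 0.282).

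Around the IL-7 receptor, 1 of 17 tested genes passed by edgeR, against 0.674% of all tested genes. DESeq2 called that gene and 1 other, Il2rg, against 3.81% of all genes it tested. Il2rg encodes the receptor chain that IL-7 shares with IL-2, and was at -0.20 (SE 0.05, edgeR adjusted p = 0.116). Bcl2, the survival factor that IL-7 signalling maintains, rose from 283, 280.4 and 283 CPM in WT to 366, 346 and 358 CPM in KO, with a log2 fold change of 0.34 (SE 0.05, edgeR adjusted p = 0.0289). The call was lost without any one library other than KO replicate 1, with adjusted p from 0.0501 to 0.152, and its counts were not whole numbers in every library. The median of the group was 0.10. At an unadjusted edgeR p under 0.05 there were 5 genes higher and 1 lower, against 8.47% and 6.6% of all tested genes.

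For the partners of TCF1 and LEF1, 0 of 20 tested genes passed by edgeR, with a median of 0.05. At an unadjusted edgeR p under 0.05 there were 3 genes higher in KO, against 8.47% of all tested genes. The corepressor genes Tle1 and Tle2, whose proteins bind TCF factors, were at 0.54 (SE 0.12, edgeR adjusted p = 0.109) and 0.95 (SE 0.25, adjusted p = 0.156). DESeq2 called both Tle1 and Tle2, against 3.81% of all genes it tested. Tle2 was low, with means of 1.54 CPM (WT) and 2.97 CPM (KO). Axin2, the usual readout of beta-catenin signalling, was at 0.03 on the log2 fold change scale.

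Neither the SATB1 partners nor the BTG group had a gene past the threshold by edgeR or DESeq2, or with an unadjusted edgeR p under 0.05. Over all tested genes the shares were 0.674%, 3.81% and 15.1% in either direction. The medians were 0.01 over 11 tested chromatin genes and 0.01 over 15 BTG, TOB and CCR4-NOT genes. Kat2b, an acetyltransferase gene, was at 0.14 and Rad21, of cohesin, at -0.10, with edgeR adjusted p of 0.403 and 0.455. Prmt1, an arginine methyltransferase that binds BTG1, was at -0.15 and Cnot9, of the CCR4-NOT deadenylase, at -0.15, with adjusted p of 0.332 and 0.393. Without WT replicate 1 the values of Kat2b, Prmt1 and Cnot9 were 0.08, -0.10 and -0.08, and without KO replicate 1 that of Rad21 was -0.06. Btg2, the nearest relative of Btg1, was at 125 ± 6.24 CPM (WT) against 126 ± 7.45 CPM (KO).

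Other genes of naive and quiescent T cells lay at a median of 0.22 on the log2 scale over 36 tested, 24 of them above 0. By edgeR 0 passed, while 14 were higher and 0 lower at an unadjusted p under 0.05, against 8.47% and 6.6% of all tested genes. In 13 every KO sample lay above every WT sample, against 11.9% of all tested genes. This list was also chosen with earlier results of these data known, so its counts are a description only. Igfbp4, an abundant mRNA of naive T cells, was at 616, 588 and 761 CPM in WT and 1112, 801 and 891 CPM in KO, with a KO-minus-WT log2 difference of 0.51 (SE 0.14, edgeR adjusted p = 0.181). Ets1, a factor of resting lymphocytes, was at 0.24 (SE 0.07, adjusted p = 0.186). DESeq2 called 5 of the 36, against 3.81% of the genes it tested in either direction: Igfbp4, Ly6c2, Ms4a6b, St8sia1 and Rasgrp2. Foxp1 and Bach2, which also guard quiescence, were at -0.0016 and -0.12.

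Genes of T cell activation had a median of -0.12 over 22 tested, 16 of them below 0, with 0 past the threshold by edgeR and 2 higher and 5 lower at an unadjusted p under 0.05, against 8.47% and 6.6% of all tested genes. The early growth response gene Egr3 was at 0.46 (SE 0.09, edgeR adjusted p = 0.0893), and DESeq2 called it. Pdcd1, the PD-1 gene, was at -0.26 (SE 0.09, adjusted p = 0.23) with every KO sample below every WT sample, which held for 10.9% of tested genes.

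The chromosome around Klf2 holds a gene past the threshold. Of 23 tested genes that start within 500 kb of the Klf2 start, 1 passed, against 0.674% of all tested genes. It was Hmgn2-ps, named as a pseudogene of the nucleosome-binding gene Hmgn2, which starts 13.8 kb before Klf2 on the opposite strand and rose from 12.7, 12.7 and 13.8 CPM in WT to 46.1, 49.1 and 48.0 CPM in KO (log2 fold change 1.87, SE 0.06, edgeR adjusted p = 3.0e-05). Its counts were not whole numbers in every library, so its level is uncertain against other copies of Hmgn2. The KO values of Hmgn2-ps were nearly level and lowest in KO replicate 1, where Klf2 was highest. Eps15l1, the nearest tested gene on the other side, starts 102.4 kb away and was at 0.11 (SE 0.06, adjusted p = 0.419), or 0.07 without KO replicate 1. The median over the 23 genes was 0.04. Position and genotype cannot be told apart in this design. Within 500 kb of each of the other 8 genes, 0 to 17 genes were tested, and by edgeR 0 passed.

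**Figure D4:**
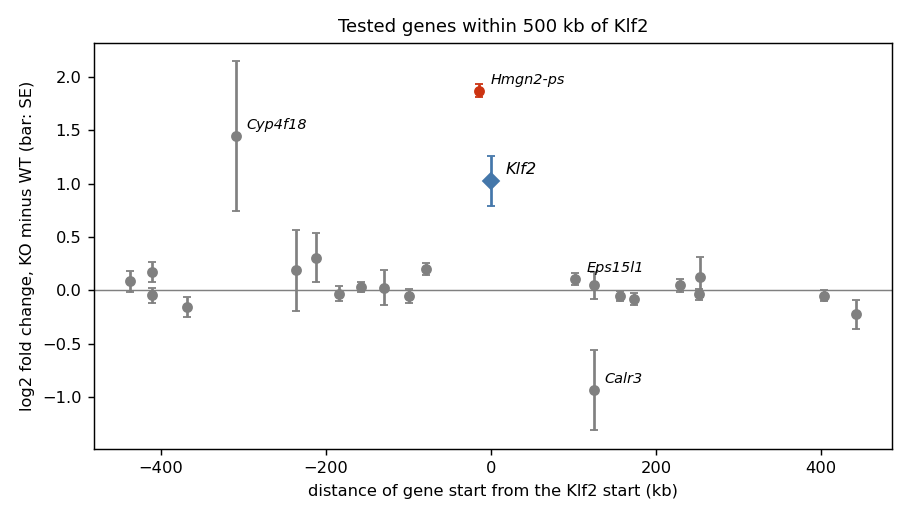
Log2 fold change of KO minus WT (y axis, bars SE) of Klf2 and the 23 tested genes within 500 kb of its start, by distance of their start (x axis, kb); blue is Klf2 and red the one gene past the threshold. Hmgn2-ps at 1.87 and Klf2 at 1.02 stand side by side, while Eps15l1 on the other side is at 0.11.

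The genes most like Klf2 were found by the root mean square difference of log2 CPM profiles over the 6 libraries, each taken relative to its own WT mean, among 9869 genes with a mean of at least 2 on the log2 CPM scale. The closest were Pou6f1 (0.11), Capn3 (0.16), Setbp1 (0.20), Tbc1d16 (0.20) and Ifit1bl1 (0.20). Pou6f1, a POU-domain factor gene, was at 18.4, 16.7 and 23.6 CPM in WT and 54.9, 29.7 and 34.2 CPM in KO, with the order of the KO libraries that Klf2 had. Klf3 came 38th and S1pr1 62nd in this order, while Satb1 (314th), Lef1 (484th), Il7r (691st), Tcf7 (819th), Btg1 (896th) and Ccr7 (912th) followed. On the log2 TPM scale only Pou6f1 and Capn3 were again among the closest 5. The closest there was Esrp2 (0.09), which came 282nd by CPM.

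**Figure D5:**
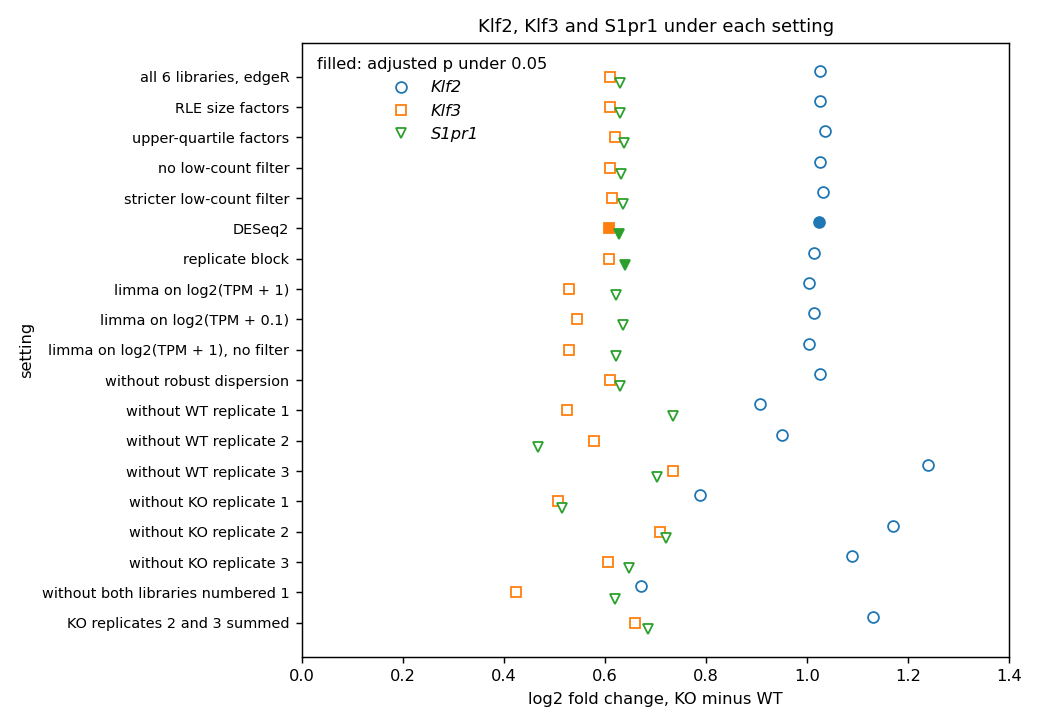
Log2 fold change of KO minus WT (x axis) of Klf2, Klf3 and S1pr1 under each setting (y axis); filled symbols have an adjusted p under 0.05. The values stay above 0 throughout, from 0.67 to 1.24 for Klf2, 0.42 to 0.73 for Klf3 and 0.47 to 0.73 for S1pr1, and are filled for DESeq2 and, for S1pr1, with a replicate block.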

How the data were processed

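Per the submitters' processing notes, reads were checked with FastQC and the aligner HISAT2 is named, without versions. For the counting program, genome build and annotation: not given in the sources used here. The authors deposited estimated counts per gene, of which 23.5 to 25.2% per library were not whole, and TPM, which scale by gene length and library total. Counts were rounded, filtered by filterByExpr and scaled by TMM (factors 0.988 to 1.01). KO was compared with WT by edgeR 4.0.16 (quasi-likelihood F test, two-sided, robust, genotype as the term) with Benjamini-Hochberg adjustment over 12768 genes. Alternatives used DESeq2 1.42.0 and limma 3.58.1 under R 4.3.3. The edgeR test was tested on simulated data. Positions are from GENCODE M21 (GRCm38), matched by Ensembl identifier, and the authors may have used another.

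The members and lists were chosen with earlier results of these data known. The rule named the 9 genes, Dlst, Foxp3, up to 4 genes past the threshold in each list or the 2 of smallest p, called genes near a member, the genes flanking Klf2, the 5 most like Klf2, and in each marker list the 2 with the most counts and any past the threshold. Foxo1, Cd69, Axin2, Btg2, Ddx3y, Eif2s3y, Foxp1, Bach2 and the genes that DESeq2 called were named after their values were seen. Some genes that the rule covers are not reported here.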

Additional observations from a re-analysis of the deposited data

How the results depend on the processing

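All 9 genes kept a higher mean in KO under each of 18 alternatives, and of 162 such values 158 stayed on the same side of the threshold; the other 4 were Klf2, Klf3 and S1pr1 past it by DESeq2 (3 members) and S1pr1 with a replicate block (1 member). The median log2 fold change of the 9 ran from 0.16 to 0.31. Over the 6 fits that each leave out a library it ran from 0.21 to 0.31. The number of genes past the threshold among all tested was 86 with edgeR, 133 with no low-count filter, 524 by DESeq2, 177 with the replicate block, 5 by limma on unfiltered TPM, 538 without both libraries numbered 1 and 8 with KO replicates 2 and 3 summed. With each library left out in turn it ran from 4 (without KO replicate 3) to 93 (without WT replicate 1), with 10 without KO replicate 2, 16 without WT replicate 3 and 27 without WT replicate 2. The cause was not tested. The check used did not settle whether the replicate numbers pair the samples. Deviations of same-numbered samples correlated at 0.182, 0.072 and 0.081 across genes, the first being the highest of all WT and KO pairs. WT replicate 2 correlated best with KO replicate 3 (0.112), but KO replicates 2 and 3 were too alike for the check to separate them. Bcl2 lost its call in 7 alternatives. At 33590510 counts or more a library, 9131 of 21899 listed genes had too few counts to be tested.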
